A study of Homo sapiens with 4 samples.

Results

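The genes described here are 10 members of the VEGF, PDGF and angiopoietin group, namely VEGFA, VEGFB, VEGFC, PGF, FLT1, PDGFA, PDGFB, PDGFC, ANGPT1 and ANGPT2. They were taken by symbol from the 19475 gene symbols of an RNA-seq table, and for each symbol the transcript with the highest mean level was kept. Of these, 9 encode secreted ligands, while FLT1 encodes a VEGF receptor that also has secreted forms. The cells were SKOV3, an established human ovarian cancer line. The 4 libraries were 2 of cells on a tissue culture plate (TCP), labelled day 0, and 2 of tumor spheroids on plates coated with polymer X, labelled day 8. No treatment, allele or other agent distinguishes the groups in the labels. Substrate and culture time changed together, and the effects of these cannot be told apart. All 4 libraries carry the same labelled protocol, with serum replacement, whereas the methods of the study describe maintenance of the line in fetal bovine serum, so it is unclear which medium the cells on TCP had. In those methods the spheroids were dissociated with accutase every 4 days. The labels do not say that libraries of a group came from separate cultures, so p-values measure only the spread between these samples.

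VEGF ligands are dimeric secreted proteins that bind receptor tyrosine kinases on endothelial cells, which line blood and lymph vessels. PDGF ligands act mainly on pericytes, smooth muscle cells and fibroblasts, and the angiopoietins act on the endothelial receptor TIE2, encoded by TEK. In carcinomas the tumor cells are commonly a source of the ligands, whereas most of the receptors are made by cells of the stroma and vessels, which were not part of these cultures.

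Levels were read as FPKM, sequenced tags on the exons of a transcript, divided by its length and by the total tags of that library, so that levels of different genes can be set side by side. The libraries held 38403200 to 44916900 tags. Correlations between libraries of 1 group were 0.998 on TCP and 0.997 on polymer X on the log2(FPKM + 1) scale, and their differences exceeded the counting error. The test was that of limma on log2(FPKM + 1), with Benjamini-Hochberg adjustment over the 11964 genes that reached 1 FPKM in 2 or more libraries. A call, higher or lower, required an adjusted p below 0.05 together with a log2 fold change of 1 or more in size. Log2 fold changes are of FPKM + 1, so they are smaller than the ratios of FPKM where a group lies near or below 1 FPKM. The labelled line was checked against its markers. ERBB2, PAX8, KRT8 and KRT18 lay at 48.8 FPKM or more in every library, whereas MUC16, CDH1 and KRT19 stayed below 1 FPKM in every library. Of the 8 line markers, 5 were tested, 3 rose (ERBB2, PAX8 and EPCAM, with log2 fold changes of 2.13, 1.06 and 1.05) and 0 were called lower, although KRT8 (-0.87) and KRT18 (-0.44) were lower by the limma adjusted p alone, at 6.4e-07 and 4.3e-05. EPCAM reached the level needed for a test through polymer X only, at 0.168 and 0.104 FPKM on TCP, and with quantile normalization its log2 fold change was 0.47 and it was not called. Its ratio of mean FPKM was 9.98, against 2.11 for PAX8.

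VEGFA, PGF, VEGFB and PDGFB were called higher on polymer X, and 0 of the 10 genes were called lower. VEGFC had lower FPKM on polymer X by just under the fold minimum, PDGFA had slightly higher FPKM without passing it, and PDGFC had an interval of change that included 0. ANGPT2 lay too low to be tested, and FLT1 and ANGPT1 were at or near 0 in all libraries. Across all tested genes, 10.7% were called higher and 9.45% lower. By the adjusted p of limma alone, and likewise by the unadjusted p, 5 of the genes were higher and 1 was lower, and by the adjusted p 37.4% and 43.6% of all tested genes were. PGF and PDGFB reached the level needed for a test through the polymer X libraries only, so the number called among the 7 tested genes is a description. In bulk RNA, more cells that express a gene and more RNA per cell cannot be told apart. The plot of the levels by library shows how far each gene moved.

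**Figure D1:**
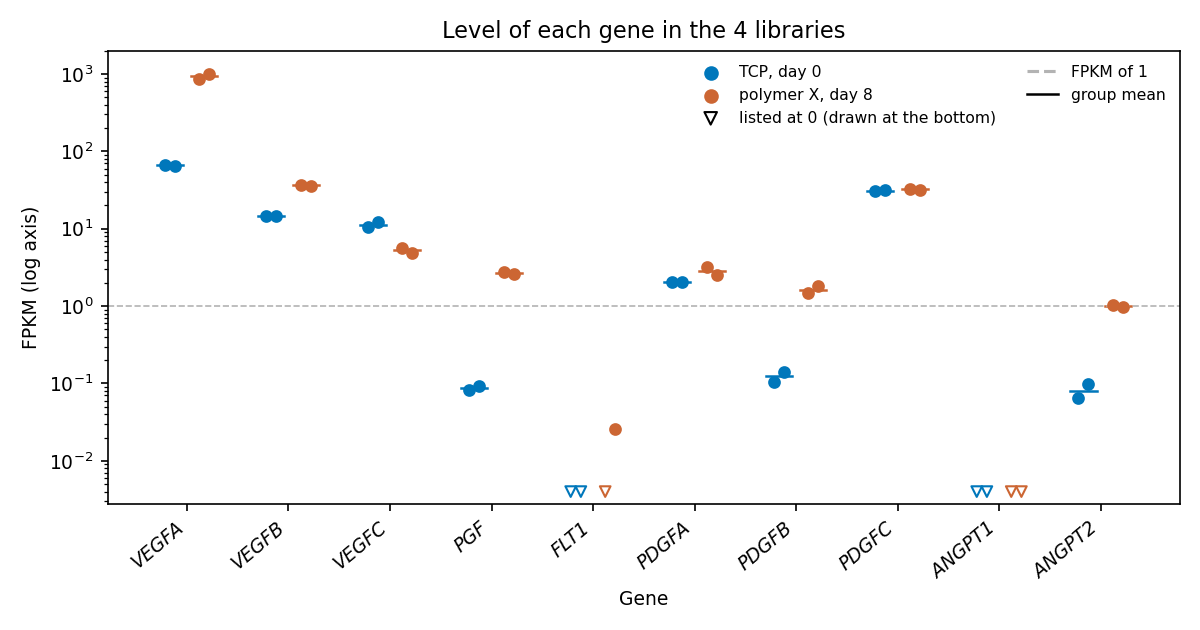
FPKM of the 10 genes on a log axis, with 1 point per library, blue for TCP on day 0 and orange for polymer X on day 8, short lines for group means of genes detected in both libraries of a group, a dashed line at an FPKM of 1 and open triangles for values listed at 0. VEGFA lies highest in both groups, at a mean of 65.9 on TCP and 933 on polymer X, while ANGPT1 is listed at 0 throughout.

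VEGFA encodes VEGF-A, the principal ligand of the receptor KDR in the growth of blood vessels. The transcript kept, as the one of highest mean FPKM, was NM_001025370 (chr6:43737946-43754223 of hg19, plus strand). It measured 66.3 and 65.4 FPKM in the TCP libraries and 875 and 991 FPKM in the polymer X libraries. Both polymer X libraries lay far above both TCP libraries, and the gap between the groups was much wider than that within either of them. The mean FPKM was 65.9 ± 0.664 (SD, n = 2) on TCP and 933 ± 81.5 (SD, n = 2) on polymer X, a 14.2-fold difference. On the log2(FPKM + 1) scale the increase was 3.80 (SE 0.07, 95% confidence interval 3.64 to 3.96), with a limma adjusted p of 7e-10. Among all 19475 symbols, VEGFA ranked 845 by mean FPKM on TCP and 21 on polymer X. An exact two-sided permutation test of 2 libraries against 2 gave p = 0.333 for VEGFA, the smallest this design allows, so each adjusted p rests on the variance that limma shares across genes. For VEGFA the limma adjusted p was 2.3e-05 without the 1 FPKM filter and 5.9e-31 with a block for replicates. Its size therefore depends on the model. The table holds 20 transcripts of VEGFA, which share most of their exons and therefore most of their tags. Of the rows, NM_001287044, the shortest at 2542 bases, measured 54.0, 53.5, 735 and 829 FPKM in the 2 TCP and 2 polymer X libraries, a difference in the same direction.

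Transcripts of VEGFA that differ by 1 coding exon were compared to see which parts of the message rose. Exon 6a and exon 7 both encode basic stretches that bind heparin and hold the protein at the cell surface and matrix. The short form of the protein lacks both, the most studied form holds exon 7, and a longer form holds both exons. Subtracting the tags of a transcript without an exon from those of a transcript with it leaves the tags of that exon. These exon counts were chosen after the transcript values had been seen, so they are descriptions with no test. The exons are shown because they carry the difference between the forms of the protein. In the sequences, capitals mark the exon and lower case the 12 coding bases on either side in the transcript (GENCODE 29 on GRCh38, plus strand; exon 6a at chr6:43780732-43780803, 72 bases, and exon 7 at chr6:43781956-43782087, 132 bases). The exon 7 transcript shown has no exon 6a, so the same 12 bases stand before both exons.
VEGFA exon 6a: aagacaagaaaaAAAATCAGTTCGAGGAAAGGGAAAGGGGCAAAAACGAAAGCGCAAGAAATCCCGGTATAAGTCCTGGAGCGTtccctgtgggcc
VEGFA exon 7: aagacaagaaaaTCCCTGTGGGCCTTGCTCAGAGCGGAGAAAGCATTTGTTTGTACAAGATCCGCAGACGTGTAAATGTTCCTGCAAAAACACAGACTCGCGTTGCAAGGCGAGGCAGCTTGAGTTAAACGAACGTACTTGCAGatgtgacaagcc

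Exon 7 held 213 and 204 tags on TCP and 2733 and 3181 on polymer X. Exon 6a held 55 and 61 tags on TCP and 442 and 408 on polymer X. Both exons thus gained tags, but exon 6a gained fewer. Of the tags on the 2 exons together, exon 6a took 20.5% (exact Clopper-Pearson 95% interval 15.9 to 25.9) and 23.0% (18.1 to 28.6) in the TCP libraries. In the polymer X libraries it took 13.9% (12.7 to 15.2) and 11.4% (10.3 to 12.5). The group means were 21.8% ± 1.77 and 12.6% ± 1.81 (SD, n = 2), and the libraries of the groups did not overlap. The intervals cover counting error only and did not overlap between the groups if each tag is a separate fragment. Were every 2 tags mates of 1 fragment, the interval would be 14.0 to 28.4 for TCP replicate 1 and 12.3 to 15.7 for polymer X replicate 1, and these overlap. As a share of all tags of the longer VEGFA transcript, exon 6a took 0.616% and 0.595% on TCP and 0.362% and 0.290% on polymer X, whereas exon 7 took 2.39% and 1.99% on TCP and 2.24% and 2.26% on polymer X. A second set of VEGFA transcripts with the same pair of exons gave exon 6a means of 21.3% and 12.1%. The adjoining segment exon 6b, of 51 bases, held 3 and 0 tags on TCP and 7 and 31 on polymer X, where the mean density of the rest of the transcript would give 126 to 1991.

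**Figure D2:**
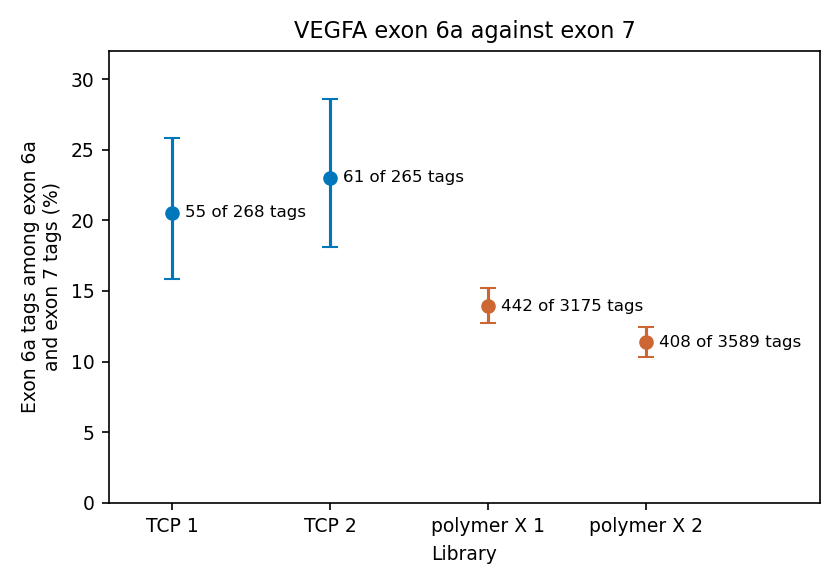
Share of the tags on VEGFA exons 6a and 7 that lay on exon 6a, in percent, by library (blue, TCP on day 0; orange, polymer X on day 8), with points for the measured share, bars for the exact 95% binomial interval and the tag counts beside them. The shares were 20.5% and 23.0% on TCP and 13.9% and 11.4% on polymer X.

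VEGFB, VEGFC and PGF encode the other VEGF ligands measured here. VEGFB encodes VEGF-B, a ligand of FLT1 linked to fatty acid uptake by endothelium. NM_003377 (chr11:64002056-64006736 of hg19, plus strand) measured 14.7 FPKM in each TCP library and 37.3 and 36.0 FPKM on polymer X. The groups did not overlap, and the mean FPKM was 2.49-fold higher on polymer X, with a log2 fold change of 1.26 (SE 0.06, limma adjusted p 5.1e-08).

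PGF encodes placental growth factor, which also binds FLT1. NM_001293643 (chr14:75408533-75422467 of hg19, minus strand) measured 0.082 and 0.094 FPKM on TCP, which is 6 and 8 tags, and 2.79 and 2.60 FPKM on polymer X, which is 212 and 201 tags. The gene therefore went from near the detection limit to a low level in both polymer X libraries. The ratio of mean FPKM was 30.6, with a counting interval of 17.9 to 56.2, and the log2 fold change of FPKM + 1 was 1.76 (SE 0.08, limma adjusted p 7.5e-08). For levels this low, the added 1 makes the log2 value smaller than the ratio of FPKM.

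Alternative coding segments also distinguish forms of VEGF-B and placental growth factor. VEGFB has a segment of 101 bases (chr11:64237420-64237520 of GRCh38, plus strand) that gives the more soluble form of the protein, and PGF has a segment of 63 bases (chr14:74946213-74946275 of GRCh38, minus strand) that gives a form binding heparin. They are shown in capitals with 12 coding bases on either side in lower case, because the counts that follow refer to them.
VEGFB segment: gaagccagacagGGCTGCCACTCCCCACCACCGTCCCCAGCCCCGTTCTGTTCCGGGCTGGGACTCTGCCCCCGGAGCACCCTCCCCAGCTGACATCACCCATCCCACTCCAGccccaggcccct
PGF segment: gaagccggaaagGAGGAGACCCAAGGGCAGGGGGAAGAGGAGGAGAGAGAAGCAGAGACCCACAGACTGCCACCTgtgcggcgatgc

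The VEGFB segment held 84 and 121 tags on TCP and 252 and 249 on polymer X. Its tag density relative to the rest of the transcript was 1.51 and 1.91 on TCP and 1.74 and 1.76 on polymer X, and these ranges overlapped. The PGF segment held 1 and 0 tags on TCP and 8 and 5 on polymer X, where the density of the rest of the transcript would give 7.0 and 6.7. On TCP, too few tags fell on this transcript to read the segment.

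VEGFC encodes VEGF-C, the main ligand for growth of lymph vessels. NM_005429 (chr4:177604685-177713899 of hg19, minus strand) measured 10.5 and 12.1 FPKM on TCP and 5.68 and 4.87 FPKM on polymer X. Both polymer X libraries lay below both TCP libraries, and the mean was 2.14-fold higher on TCP. The log2 fold change was -0.97 (SE 0.09, 95% confidence interval -1.17 to -0.77, limma adjusted p 6.1e-06), just short of the fold minimum. Without TCP replicate 1 it was -1.06 and without polymer X replicate 1 also -1.06, and in both cases the gene was called lower.

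The balance among the VEGF ligands moved with these changes. VEGFA made up 72.4% and 70.9% of the summed FPKM of VEGFA, VEGFB, VEGFC and PGF on TCP, and 95.0% and 95.8% on polymer X. The mean share of VEGFB was 16.0% ± 0.114 on TCP and 3.76% ± 0.401 on polymer X (SD, n = 2), although its own FPKM was higher there. The mean share of VEGFC was 12.3% ± 1.16 on TCP and 0.544% ± 0.103 on polymer X (SD, n = 2). The ratio of VEGFA to VEGFC FPKM was 6.32 and 5.42 on TCP and 154 and 204 on polymer X. The sum itself was 91.6 and 92.2 FPKM on TCP and 921 and 1034 FPKM on polymer X.

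**Figure D3:**
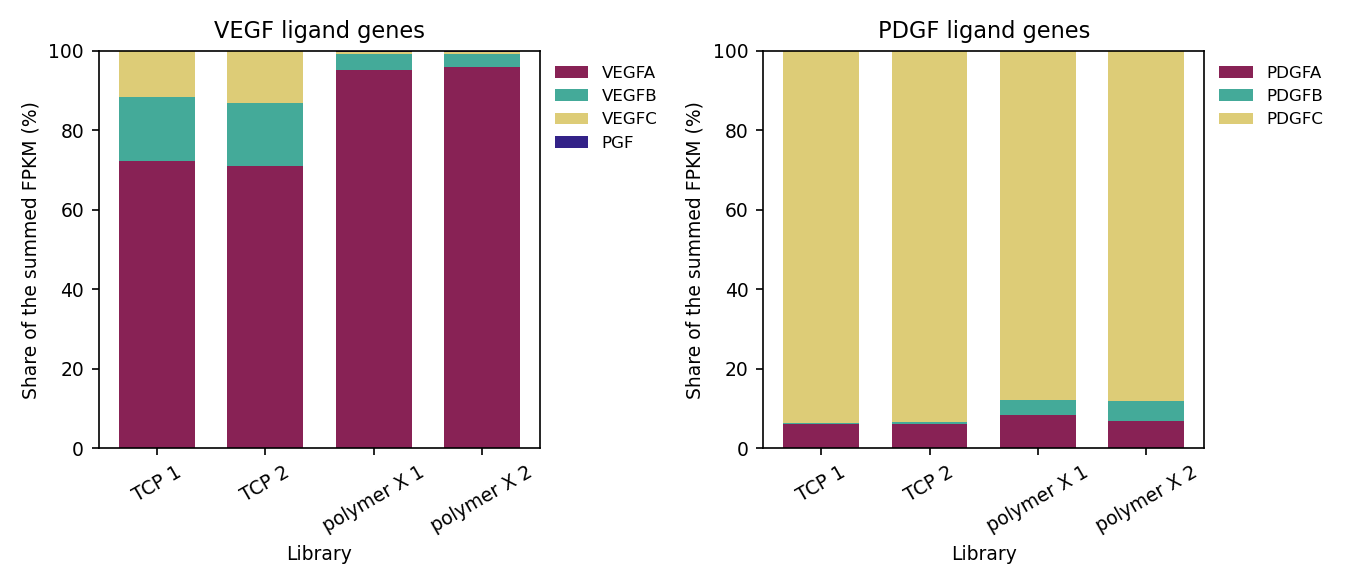
Share of each gene in the summed FPKM of the VEGF ligand genes (left) and the PDGF ligand genes (right), in percent, with 1 stacked bar per library. VEGFA takes 70.9% to 72.4% of the VEGF sum on TCP and 95.0% to 95.8% on polymer X, and PDGFC takes most of the PDGF sum in every library.

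FLT1, which encodes VEGF receptor 1 and its secreted decoy forms, was at or under 3 tags in every library. All 4 of its transcripts, those of the secreted forms included, were listed at 0 in both TCP libraries and in polymer X replicate 1, and held 2 tags in polymer X replicate 2. For the transcript kept, NM_001160031, 3 tags are an FPKM of 0.0352 to 0.0412. No fold change was given for this gene.

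PDGFC encodes PDGF-C, a ligand that is secreted in latent form and released by cleavage. NM_016205 (chr4:157682763-157892546 of hg19, minus strand) measured 31.0 and 31.4 FPKM on TCP and 33.1 and 31.6 FPKM on polymer X. The libraries of both groups lay within a narrow range, and the log2 fold change was 0.05 (SE 0.06, 95% confidence interval -0.08 to 0.18, limma adjusted p 0.42). With quantile normalization it was 0.31 with a limma adjusted p of 0.00043, still under the fold minimum.

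PDGFA encodes the PDGF A chain, a ligand of PDGFRA. NM_033023 (chr7:536897-559481 of hg19, minus strand) measured 2.03 and 2.08 FPKM on TCP and 3.18 and 2.49 FPKM on polymer X. The polymer X libraries differed from each other by more than the TCP libraries did, but both lay above them. The log2 fold change was 0.32 (SE 0.10, 95% confidence interval 0.10 to 0.54), with a limma adjusted p of 0.012 that passed the threshold for p but not that for size. Without polymer X replicate 1 the log2 fold change was 0.19 (limma adjusted p 0.074), without polymer X replicate 2 it was 0.45 (0.003), and with quantile normalization it was 0.08 (0.47), so even the pass on p rests on these choices.

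PDGFB encodes the B chain, which recruits pericytes to vessels through PDGFRB. NM_033016 (chr22:39619364-39636914 of hg19, minus strand) measured 0.106 and 0.141 FPKM on TCP, or 11 and 17 tags, and 1.46 and 1.80 FPKM on polymer X, or 157 and 197 tags. The ratio of mean FPKM was 13.2, with a counting interval of 8.88 to 19.9, and the log2 fold change of FPKM + 1 was 1.22 (SE 0.09, limma adjusted p 1.9e-06). The longer transcript NM_002608 measured 0.096 and 0.123 FPKM on TCP and 1.42 and 1.59 FPKM on polymer X. With quantile normalization the log2 fold change of PDGFB was 0.72 and it was not called.

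Among the PDGF ligands, PDGFC made up 93.5% ± 0.102 of the summed FPKM on TCP and 87.9% ± 0.232 on polymer X (SD, n = 2). The share of PDGFB was 0.37% ± 0.07 on TCP and 4.44% ± 0.817 on polymer X. The ratio of PDGFA to PDGFB FPKM was 19.2 and 14.8 on TCP and 2.19 and 1.39 on polymer X, so the A and B chain messages lay closer together on polymer X.

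The long form of the PDGF A chain ends in a basic stretch, encoded by exon 6, that retains it at the cell surface. The 53 coding bases of this exon (exon at chr7:500431-500499 of GRCh38, minus strand) are shown in capitals after 12 coding bases in lower case, because nearly no tag of PDGFA fell on them.
PDGFA exon 6: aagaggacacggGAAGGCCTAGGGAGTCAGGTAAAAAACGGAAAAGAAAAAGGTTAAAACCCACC

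PDGFA exon 6 held 0 tags in each TCP library and 1 tag in each polymer X library. The mean density of the rest of the transcript would give 5.4 and 6.4 tags on TCP and 8.8 and 7.0 on polymer X. The 4 libraries therefore held mostly the PDGFA message without this exon, on TCP and on polymer X alike, within what these small counts can show.

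**Figure D4:**
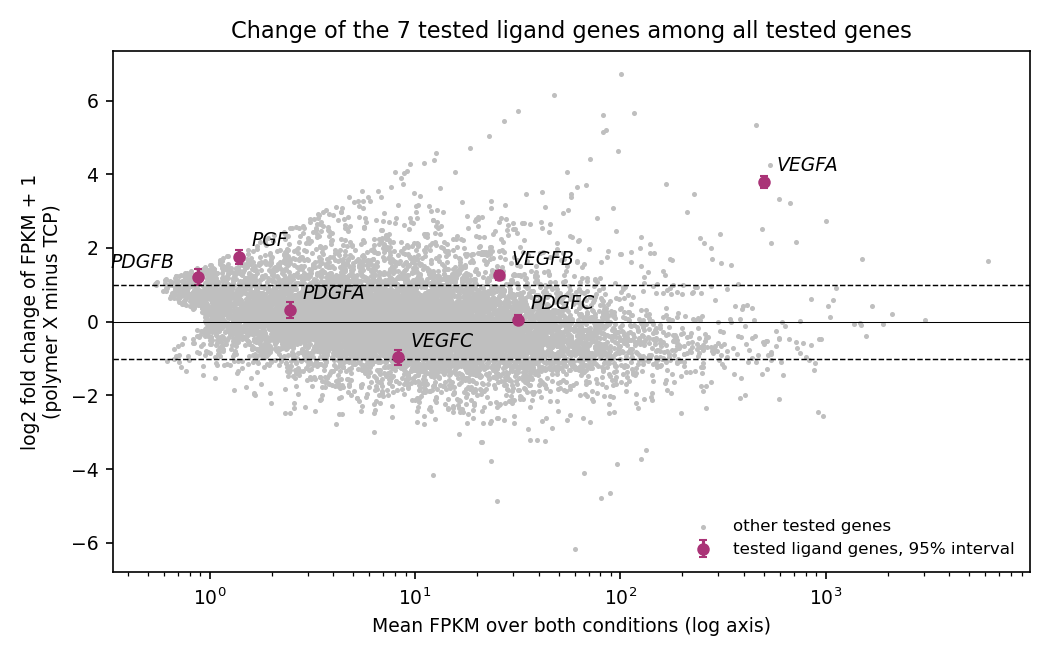
Log2 fold change of FPKM + 1 (polymer X minus TCP) against mean FPKM over both conditions on a log axis, for the 11964 tested genes (grey) and the 7 tested genes of the group (purple, with 95% confidence intervals from limma). Dashed lines mark log2 fold changes of -1 and 1. VEGFA stands at 3.80, VEGFC at -0.97 and PDGFC at 0.05.

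In order of mean FPKM on TCP, VEGFA was followed by PDGFC, VEGFB, VEGFC, PDGFA, PDGFB, PGF and ANGPT2. The libraries of PGF and ANGPT2 overlapped, and those of every other neighbouring pair of these genes did not. On polymer X the order was VEGFA, VEGFB, PDGFC, VEGFC, PDGFA, PGF, PDGFB and ANGPT2, and the libraries of PDGFA and PGF overlapped while the other neighbours did not. VEGFB thus stood below PDGFC on TCP and above it on polymer X.

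The angiopoietins act in opposition on TIE2, where ANGPT1 is an activator that steadies vessels and ANGPT2 is a context-dependent antagonist. ANGPT1 was listed at 0 FPKM for all 3 of its transcripts in all 4 libraries. ANGPT2, NM_001147 (chr8:6357175-6420784 of hg19, minus strand), measured 0.064 and 0.097 FPKM on TCP, or 13 and 23 tags, and 1.02 and 0.987 FPKM on polymer X, or 215 and 211 tags. The polymer X libraries lay well above the TCP libraries, and the ratio of mean FPKM was 12.5, with a counting interval of 8.68 to 17.7. ANGPT2 reached an FPKM of 1 in 1 library only, so it was not tested. Its span overlaps MCPH1 on the opposite strand, and because tags of both strands were counted, tags of the 2 genes cannot be told apart on shared exons. A segment of 156 coding bases that 1 transcript of ANGPT2 lacks held 0 tags on TCP and 5 and 10 on polymer X. The density of the rest of the transcript would give 0.4 and 0.7 tags on TCP and 6.4 and 6.1 on polymer X. On TCP, too few tags fell on this transcript to read the segment.

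Of the ligands of these families outside the group, 3 were measured and none was tested. VEGFD, a lymphatic ligand, measured 0.126 and 0.194 FPKM on TCP and 0.194 and 0.262 on polymer X. PDGFD measured 0.294 and 0.402 FPKM on TCP and 0.201 and 0.234 on polymer X. ANGPT4 measured 0 and 0.010 FPKM on TCP and 0.093 and 0.059 on polymer X. All 3 stayed below 1 FPKM in every library.

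Apart from FLT1, 9 receptor genes were measured, of which 3 were tested, 1 was called higher and 1 lower. Among all tested genes, 10.7% were called higher and 9.45% lower. The kinase receptors were low throughout. KDR, the main signalling receptor of VEGF-A, measured 0.476 and 0.438 FPKM on TCP and 0.215 and 0.110 on polymer X. FLT4, the receptor of VEGF-C, measured 0.821 and 0.768 FPKM on TCP and 0.753 and 0.577 on polymer X. PDGFRA measured 0.103 and 0.084 FPKM on TCP and 0.254 and 0.291 on polymer X, and PDGFRB measured 0.106 and 0.083 FPKM on TCP and 0.115 and 0.026 on polymer X. TEK ranged from 0.021 to 0.029 FPKM over the 4 libraries. TIE1, its orphan relative, measured 0.060 and 0.115 FPKM on TCP and 0.439 and 0.609 on polymer X.

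The co-receptors were the abundant receptor messages. NRP1, which binds the part of VEGF-A encoded by exon 7 and the end of the protein, measured 30.1 and 30.8 FPKM on TCP and 30.2 and 29.8 on polymer X. Its log2 fold change was -0.02 (SE 0.05, limma adjusted p 0.72), and it was 0.22 with quantile normalization and 0.0195 after scaling to a common median, so that its direction is not settled. NRP2, the co-receptor of VEGF-C, measured 28.5 and 28.98 FPKM on TCP and 12.3 and 10.8 on polymer X for NM_201264. It fell by 1.25 on the log2 scale (SE 0.07, limma adjusted p 2e-07). With the sum of its transcripts the value was -0.98 and with the longest transcript -0.75, and with either it was not called. PDGFRL, a secreted protein related to the PDGF receptors, measured 2.47 and 2.56 FPKM on TCP and 9.38 and 8.98 on polymer X, and rose by a log2 fold change of 1.53 (SE 0.07, limma adjusted p 5.9e-08).

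VEGF-C and some PDGF ligands need cleavage to become fully active, and 10 genes of ligand processing were therefore examined. Of these 7 were tested, 1 was called higher and 1 lower, where 10.7% and 9.45% of all tested genes were. Their median log2 fold change was -0.29, against -0.06 over the 11964 genes tested. CCBE1, a secreted protein needed for cleavage of VEGF-C by ADAMTS3, measured 38.6 FPKM in each TCP library and 3.30 and 2.98 FPKM on polymer X, and fell by 3.26 on the log2 scale (SE 0.06, limma adjusted p 8.8e-10). ADAMTS3 itself stayed at or below 0.039 FPKM in every library. PCSK6, a proprotein convertase, measured 1.31 and 1.51 FPKM on TCP and 10.1 and 9.63 on polymer X, and rose by 2.17 on the log2 scale (SE 0.08, limma adjusted p 1.2e-08).

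VEGFA is a textbook target of the HIF transcription factors, which accumulate when oxygen is low. Of 12 genes of oxygen sensing and response, all were tested, 6 were called higher and 0 lower. The shares over all tested genes were 10.7% and 9.45%. The median log2 fold change of the list was 1.09, against -0.06 over the 11964 genes tested. CA9, a carbonic anhydrase, measured 3.85 and 3.32 FPKM on TCP and 152 and 169 on polymer X (log2 fold change 5.14, SE 0.08, limma adjusted p 2.1e-10). NDRG1, a stress-response gene, measured 54.3 and 52.0 FPKM on TCP and 977 and 1067 on polymer X (log2 fold change 4.24). EGLN3, an oxygen-dependent hydroxylase that marks HIF for degradation, measured 5.49 and 6.16 FPKM on TCP and 73.7 and 80.2 on polymer X (log2 fold change 3.52). ADM, which encodes the vasoactive peptide adrenomedullin, measured 41.7 and 42.3 FPKM on TCP and 208 and 215 on polymer X (log2 fold change 2.30). HIF1A itself, at 236 and 241 FPKM on TCP and 154 and 138 on polymer X, had a log2 fold change of -0.71, and EGLN2 one of -0.36, both past the adjusted p of limma but not the fold minimum. In the other direction, VHL (0.73) and ARNT (0.43) were higher by the limma adjusted p alone. EGLN1 (-0.06) and HIF1AN (0.11) did not pass it. EPAS1, which encodes HIF-2 alpha, measured 9.33 and 9.08 FPKM on TCP and 43.7 and 45.0 on polymer X and rose by 2.15 on the log2 scale (limma adjusted p 3e-09). The genes from HIF1A to EPAS1 in this paragraph were named after their values were seen. Oxygen was not measured, and the part of low oxygen in the VEGFA values was not tested.

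Of 20 other angiogenic factors, 17 were tested, 5 were called higher and 7 lower, so the list held calls in both directions. The shares called over all tested genes were 10.7% higher and 9.45% lower. The median log2 fold change of the list was 0.18, against -0.06 over the 11964 genes tested. ANGPTL4, a secreted inhibitor of lipoprotein lipase, measured 4.06 and 3.01 FPKM on TCP and 231 and 227 on polymer X (log2 fold change 5.67, SE 0.10, limma adjusted p 3.4e-10). The matricellular gene CTGF measured 49.5 and 49.7 FPKM on TCP and 0.845 and 0.652 on polymer X (log2 fold change -4.86, SE 0.07, limma adjusted p 2.1e-10). Its relative CYR61 measured 154 and 157 FPKM on TCP and 4.62 and 4.74 on polymer X (log2 fold change -4.78). EDN1, the precursor of the vasoconstrictor endothelin-1, measured 72.1 and 70.6 FPKM on TCP and 7.03 and 6.66 on polymer X (log2 fold change -3.21). VEGFA therefore rose while several abundant angiogenic messages of the same cells fell.

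Of 14 inhibitors of angiogenesis, 8 were tested, 1 was called higher and 2 lower, and their median log2 fold change was 0.44. THBS1, which encodes the antiangiogenic matrix protein thrombospondin-1, measured 116 and 124 FPKM on TCP and 0.765 and 0.620 on polymer X (log2 fold change -6.16, SE 0.07, limma adjusted p 6.1e-11). ADAMTS1, a secreted protease that can sequester VEGF-A, measured 171 and 174 FPKM on TCP and 5.58 and 6.42 on polymer X (log2 fold change -4.64). VASH1, a vasohibin, measured 2.42 and 2.32 FPKM on TCP and 6.94 and 7.36 on polymer X (log2 fold change 1.27). Among the tested inhibitors not called, COL18A1 (log2 fold change 0.78), TIMP2 (0.77) and SEMA3F (0.83) were higher by the limma adjusted p alone. COL4A2 (-0.98) was lower by it, and SERPINF1 did not pass. In the polymer X libraries VEGFA thus lay at 875 FPKM or above while THBS1, though not every inhibitor, lay below 1 FPKM.

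**Figure D5:**
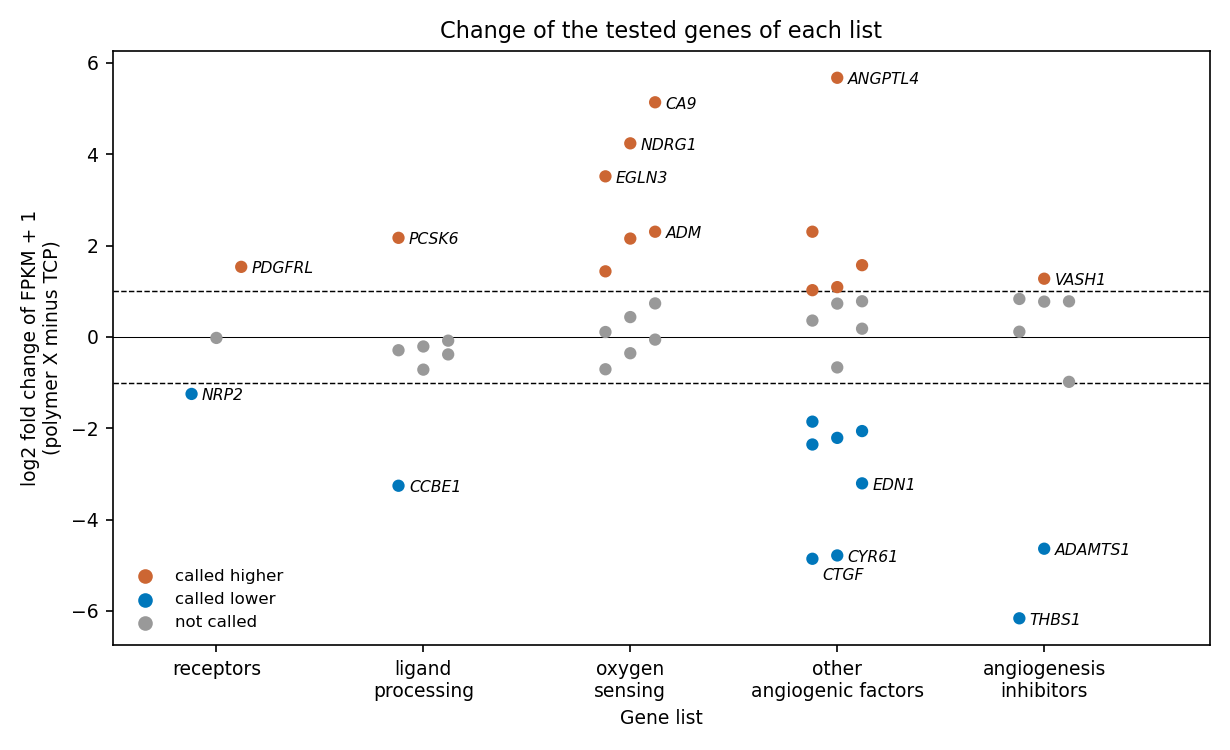
Log2 fold change of FPKM + 1 (polymer X minus TCP) for the tested genes of 5 lists, with 1 point per gene, orange for genes called higher, blue for genes called lower, grey for genes not called, and dashed lines at -1 and 1. Up to 4 called genes with the largest change in each list are named. CA9 reaches 5.14 and ANGPTL4 5.67, while THBS1 stands at -6.16.

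Markers of cells that respond to these ligands were read in the same libraries. Of 12 endothelial markers 1 was tested, ERG, which passed the adjusted p of limma (4.4e-05) but not the fold minimum (log2 fold change 0.75), so 0 were called. ERG itself reached the level needed for a test through polymer X only, at 0.350 and 0.361 FPKM on TCP and 1.42 and 1.15 on polymer X. The other 11 stayed below 1 FPKM in every library. The summed level of all 12 was 1.39 to 1.55 FPKM on TCP and 2.81 to 3.30 FPKM on polymer X. Within this sum KDR and ROBO4 lay lower on polymer X, whereas PECAM1, ERG, TIE1, CD34 and VWF lay higher and the others overlapped. The defining markers CDH5 and VWF were at or below 0.025 FPKM in every library, and PECAM1 was listed at 0 on TCP and at 0.573 and 0.458 FPKM on polymer X. Of 8 mural markers, 2 were tested and both were called higher, CSPG4 with a log2 fold change of 1.33 and ACTA2 with 1.19. Over all tested genes 10.7% were called higher. However, CSPG4 and ACTA2 both reached the level needed for a test through polymer X only, and with quantile normalization neither was called. The summed level of all 8 mural markers was 2.16 to 2.23 FPKM on TCP and 5.25 to 6.31 on polymer X, most of the difference lying in CSPG4 and ACTA2. RGS5 measured 0.709 and 0.579 FPKM on TCP and 0.387 and 0.415 on polymer X, and MYH11 measured 0.308 and 0.371 FPKM on TCP and 0.252 and 0.248 on polymer X, so both lay lower there. KCNJ8 measured 0.098 and 0.205 FPKM on TCP and 0.21 and 0.361 on polymer X, and thus lay higher on polymer X. The libraries of PDGFRB, NOTCH3 and DES overlapped between the groups. The part of such cells in the results was not tested.

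The genes with the profile most like that of VEGFA over the 4 libraries were ALOX5, CDK18 and STC1. Likeness was the Euclidean distance between log2(FPKM + 1) profiles centred on the mean of each gene, which was 0.151, 0.155 and 0.184 for these genes, against a median of 3.87 over 11963 other tested genes. ALOX5, a lipoxygenase, measured 0.402 and 0.308 FPKM on TCP and 17.1 in each polymer X library. STC1, which encodes the secreted glycoprotein stanniocalcin-1, measured 8.09 and 8.41 FPKM on TCP and 113 and 117 on polymer X. CDK18 measured 0.169 and 0.231 FPKM on TCP and 14.8 and 19.0 on polymer X. With 4 libraries in 2 groups, this distance mostly ranks genes by the size of their difference on the log2(FPKM + 1) scale. ALOX5 and CDK18 were low on TCP, so the added 1 makes their log2 values smaller than their ratios of FPKM.

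Promoter windows from RefSeq (GRCh38.p14), of 250 bases before to 50 after the start of a transcript, were matched for 5 of the 10 genes, VEGFB, VEGFC, PGF, PDGFA and FLT1, with 9 windows in all. Counted on either strand, the letters GGGCGG of the GC box occurred in 9 of the 9 windows and in 45.0% of all 35116 windows. The hypoxia response core ACGTG was in 0 of the 9, against 21.4% of all windows. TTCNNNGAA, the core of STAT sites, and TGANTCA, which covers AP-1 sites, were each in 0 of the 9, against 7.66% and 7.71% of all windows. These counts describe short windows, several of which belong to the same gene, and bear on no binding.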

How the data were processed

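RNA-seq of SKOV3 cells was analysed in 4 libraries, 2 on TCP and 2 on polymer X, grouped by the sample titles. The authors deposited FPKM values for 50078 RefSeq transcripts of hg19, rounded to 3 decimals. Per the file headers, these were made with HOMER from tags on exons of both strands. The submitters' processing notes also list STAR 2.4.0 and DESeq, with no role given. Strand was not used in counting although the kit was directional. FPKM multiplied by length fell on whole steps (100.0% of low values within 0.1 tag), which gave the tags per library. Tags are not independent molecules and may be mates of pairs, so intervals and the floor of 3 tags cover counting error only.

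Each symbol was represented by its transcript of highest mean FPKM. Genes were tested in R 4.3.3 with limma 3.58.1 on log2(FPKM + 1), with a pseudocount of 1, a variance trend over mean level and no block for replicates. This choice follows the unit. Deviations of libraries with the same number had a correlation of 0.093. Exon tags are differences of FPKM times length between transcripts, rounded to whole tags. The procedure was tested on simulated data. Some changed genes of low FPKM there missed the fold minimum on the log2(FPKM + 1) scale, and after a first run recovery was judged by adjusted p and direction without that minimum.

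All 10 genes, other ligands and receptors are named, with up to 4 called genes of each other list by size of change. The 3 profiles nearest to that of VEGFA are also named, because it had the largest change on the log2(FPKM + 1) scale. By the ratio of mean FPKM, PGF (30.6) exceeded VEGFA (14.2). Further genes in the text were picked with their values in view. The genes and lists were chosen with earlier results of these data known. Alternatives covered the pseudocount, filters, scaling, transcript choice, variance model, fold minimum, replicate block and each library left out. Plots were drawn with matplotlib 3.10.9.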

Additional observations from a re-analysis of the deposited data

How the results depend on the processing

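Of the log2 fold changes recomputed under other settings, 405 kept their call or, for untested genes, stayed near the reported value. Another 18, all of untested genes, moved. Of the rest, all of tested genes, 6 lost a call, 3 gained one (VEGFC) and 2 turned direction (NRP1). Untested genes were judged by distance only, not by direction. Among them FLT4 turned from -0.11 to 0.0119 with the longest transcript, and PDGFRB from -0.03 to 0.0269 without polymer X replicate 2. Counts of called genes and shares are not among these and follow below. For tested genes, the filters, the variance model and the replicate block cannot alter a log2 fold change, only its p. Nor can the choice of transcript alter it for a gene with 1 transcript. Part of the 405 was therefore fixed in advance. The number of the 10 genes called higher was 4, and was 3 with quantile normalization, 5 with the sum of transcripts, where ANGPT2 was tested, 5 without a fold minimum, 2 at a mean FPKM of at least 5, which removes PGF and PDGFB, and 1 with a fold minimum of 2 on the log2 scale. The number called lower was 0, and was 1 (VEGFC) with a pseudocount of 0.1, without a fold minimum, and in the range of 0 to 1 with each library left out. Over all genes, 1285 were called higher and 1131 lower. With each library left out these were 1289 to 1325 and 1053 to 1234. Without a fold minimum they were 4477 and 5212, and with the fold minimum of 2 they were 281 and 150. At a mean FPKM of at least 5, 702 were called higher, and the share of calls that were higher was 42.2% in place of 53.2%. The log2 fold change of NRP1 turned to 0.22 with quantile normalization and 0.0195 with a common median, and the cause was not tested. With transcripts summed, the share of VEGFA among the VEGF ligands was 96.9% on TCP and 99.5% on polymer X, because its 20 transcripts count the same tags repeatedly. With each library left out, that share was 70.9% to 72.4% and 95.0% to 95.8%, and the exon 6a share was 20.5% to 23.0% and 11.4% to 13.9%. Over all settings the log2 fold change was 3.71 to 3.95 for VEGFA, 1.24 to 1.49 for VEGFB, 1.35 to 3.89 for PGF, 0.72 to 2.95 for PDGFB, 0.08 to 0.45 for PDGFA and 0.02 to 0.31 for PDGFC. With quantile normalization PDGFA no longer passed and PDGFC passed the threshold for p alone. The mate-pair interval of exon 6a, its second set of transcripts and its values with a library left out were added after the data were seen.

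In the fit with a replicate block, 1285 genes were called higher and 1131 lower, and 4 and 0 of the 10 genes. In this balanced layout a block leaves every log2 fold change unchanged, so these equal counts do not show whether pairing matters. Deviations of libraries with the same number had a correlation of 0.093. This value cannot show whether such libraries shared a culture or a day of handling, and the labels do not say.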
